A study of Mus musculus and Acomys cahirinus with 16 samples.

Results

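The 50 genes described here drive or mark cell division and were taken by symbol from a list. They fall into 3 classes. Of these, 13 members act at the entry into DNA replication (G1/S), and 18 act at the entry into mitosis or later in it, or mark dividing cells (G2/M). The other 19 build the spindle, hold and check chromosomes on it or divide the cell (spindle and cytokinesis). All 50 were found in both deposited tables, among 56980 mouse genes and 19818 spiny mouse genes. Skin was taken from Mus musculus, the laboratory mouse, and from Acomys cahirinus, the African spiny mouse, each with 4 untreated samples and 4 that received DMBA/TPA. DMBA is a DNA-damaging carcinogen, and the phorbol ester TPA stimulates skin cells to grow afterwards. The samples are labelled as skin, although the design text of the series speaks of irradiated fibroblasts. The labels give no strain, age, sex, dose or length of treatment, and do not say whether tumour tissue was part of a treated sample or whether replicates were separate animals. P-values therefore measure only the spread between these samples.

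In a dividing cell, D-type cyclins with CDK4 and CDK6, and then E-type cyclins with CDK2, release E2F transcription factors from the retinoblastoma protein and start DNA replication. A later wave of genes, switched on through FOXM1 and MYBL2, supplies cyclin B with CDK1, the mitotic kinases and the motors and checkpoint proteins of the spindle. The anaphase-promoting complex then destroys cyclin B and securin, so that separase can part the chromosomes. In skin these genes are active mainly in basal keratinocytes, in the matrix of growing hair follicles and in other dividing cells.

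Promoters of late cell cycle genes often carry a CCAAT box and, close to the start, the short element TTTGAA or TTTAAA named the cell cycle genes homology region. For 41 of the 50 members RefSeq gave mouse sequence around the start (GRCm38.p6, another build than the count table, and used for sequence only). The 250 bases before the start of 6 members are printed 5′ to 3′ in the direction of the gene. They were chosen to show a G2/M and spindle promoter of members that rose in both species (Cdc20, Cdk1, Ube2c, Kif11), a G1/S promoter (Cdc25a) and the promoter of the member that fell in mouse (Pttg1). Capitals mark both forms of this element, the CCAAT box and the E2F elements TTTCCCGC and TTTGGCGC on either strand. The letters TTCAAA are thus TTTGAA read on the opposite strand, and ATTGG is a CCAAT box there.
Cdc20: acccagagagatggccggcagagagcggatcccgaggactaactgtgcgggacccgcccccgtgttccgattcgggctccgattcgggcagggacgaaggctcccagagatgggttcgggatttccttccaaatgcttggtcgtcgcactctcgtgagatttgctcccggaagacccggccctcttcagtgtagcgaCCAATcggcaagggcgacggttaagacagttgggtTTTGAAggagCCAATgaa
Cdk1: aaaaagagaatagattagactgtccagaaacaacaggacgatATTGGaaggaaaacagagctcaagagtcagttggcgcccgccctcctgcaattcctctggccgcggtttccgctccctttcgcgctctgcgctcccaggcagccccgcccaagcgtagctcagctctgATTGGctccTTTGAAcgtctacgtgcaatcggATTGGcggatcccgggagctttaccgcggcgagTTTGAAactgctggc
Ube2c: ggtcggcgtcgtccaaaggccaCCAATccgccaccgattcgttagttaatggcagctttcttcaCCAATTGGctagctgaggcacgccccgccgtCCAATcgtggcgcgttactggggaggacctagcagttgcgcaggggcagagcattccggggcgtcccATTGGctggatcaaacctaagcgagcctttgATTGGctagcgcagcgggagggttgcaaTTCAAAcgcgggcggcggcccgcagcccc
Kif11: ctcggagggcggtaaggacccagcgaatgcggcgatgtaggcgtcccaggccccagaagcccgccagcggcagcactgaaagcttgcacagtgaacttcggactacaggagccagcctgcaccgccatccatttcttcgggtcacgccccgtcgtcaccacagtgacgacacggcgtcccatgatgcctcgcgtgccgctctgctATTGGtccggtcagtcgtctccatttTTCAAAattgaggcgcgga
Cdc25a: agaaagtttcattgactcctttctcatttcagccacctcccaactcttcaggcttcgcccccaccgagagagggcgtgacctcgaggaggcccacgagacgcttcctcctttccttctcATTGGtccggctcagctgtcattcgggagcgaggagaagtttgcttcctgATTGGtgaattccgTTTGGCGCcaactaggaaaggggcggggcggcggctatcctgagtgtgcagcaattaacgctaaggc
Pttg1: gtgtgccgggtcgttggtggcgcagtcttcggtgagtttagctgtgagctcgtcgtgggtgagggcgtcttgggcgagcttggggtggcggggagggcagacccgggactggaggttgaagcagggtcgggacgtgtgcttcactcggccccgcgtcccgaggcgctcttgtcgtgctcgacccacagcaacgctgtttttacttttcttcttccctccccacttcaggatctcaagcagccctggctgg

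The Cdc20 sequence (chr4:118437344-118437593, minus strand) held 1 TTTGAA, which began 18 bases before the start, and 2 CCAAT boxes. Cdk1 (chr10:69352913-69353162, minus strand) held 2 TTTGAA elements and 3 CCAAT boxes. In Ube2c (chr2:164769679-164769928, plus strand) there were 1 TTTGAA and 6 CCAAT boxes, a pair of which overlapped on opposite strands. Kif11 (chr19:37376132-37376381, plus strand) had 1 of each, with TTTGAA beginning 19 bases before the start. Cdc25a (chr9:109875329-109875578, plus strand) carried 2 CCAAT boxes and 1 TTTGGCGC. The printed Pttg1 sequence (chr11:43425982-43426231, minus strand) held none of these letters. It lies before the single start listed for this gene. Whether skin uses that start was not tested, and other starts of Pttg1 were not examined.

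Over the whole window of 300 bases, from 250 before to 50 after the start, TTTGAA or TTTAAA stood in 3 of 10 G1/S promoters, 10 of 14 G2/M promoters (71.4%) and 14 of 17 spindle and cytokinesis promoters (82.4%). Promoters were counted by gene: a gene with several listed starts, such as E2f2, counted once if any of its windows held the element. Of all 27025 genes with a sequence, 30.6% had either element. CCAAT was found in 60% of the G1/S, 78.6% of the G2/M and 70.6% of the spindle promoters, against 41.1% of all genes. An E2F element was present in 4 of 10 G1/S promoters, in 0 of 14 and 0 of 17 of the others, and in 1.80% of all genes. Within the 150 bases before the start the share with TTTGAA or TTTAAA was 57.1% for G2/M members but 29.4% for spindle members, against 16.8% of all genes (8 of 14 and 5 of 17 promoters). In that shorter window 3 of 10 G1/S promoters held TTTGAA or TTTAAA. An E2F element remained in 2 of 10 G1/S promoters there, against 1.01% of all genes. These are matches of letters in mouse sequence only, and binding was not measured. Promoters of Ccnd1, Ccnd2, Ccne2, Ccna2, Cdc25c, Aurkb, Foxm1, Kif20a and Tpx2 were not analysed here.

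Libraries held between 19608787 and 30198281 counts in mouse and between 21143918 and 30561256 in spiny mouse. Levels are given as CPM, the usual library-scaled counts, after scaling by TMM factors, and 3 counts correspond to 0.102 to 0.158 CPM. Untreated mouse replicate 2 stood apart from the other untreated mouse samples in markers of growing (anagen) hair follicles, with a mean of 7.57 log2 CPM over 10 marker genes, while the others lay at -1.05, 1.27 and -1.25. All samples carried keratinocyte, fibroblast and skeletal muscle markers of whole skin. In such bulk samples fewer cells of a type and less RNA per cell cannot be told apart.

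Treated mouse skin had higher transcript levels of nearly all members than untreated mouse skin. Of 50 members tested, 45 rose, 1 fell (Pttg1) and 4 were not called (Ccnd3, Ccne2, Cdc25b and Ttk). A call is an adjusted p under 0.05 in edgeR's quasi-likelihood test with Benjamini-Hochberg adjustment over all genes tested, and by that rule 25.9% of all 19740 mouse genes tested rose and 35.3% fell (61.2% either way). The median log2 fold change of the members was 1.27 (2.42-fold), against -0.15 over all genes tested. It was 0.56 for the G1/S class (11 of 13 higher), 1.55 for the G2/M class (16 of 18 higher) and 1.25 for the spindle and cytokinesis class (18 of 19 higher). All treated samples lay above all untreated ones for 44 members, against 26.6% of all genes tested, and below them for 1 member, against 32.0% of genes tested. Without untreated replicate 2 the comparison called 46 members higher and 1 lower, with class medians of 0.66, 1.62 and 1.37. Scaling by library size alone lowered the median of all mouse genes by a further 0.24 and the upper-quartile factors lowered it by 0.20 (log2), which took the share of higher calls from 42.4% to 28.6% and 30.5% of all calls. The members then counted 40 and 41 higher, and Pttg1 remained lower under both.

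Spiny mouse skin showed the same kind of shift. Of 49 members tested, 46 rose, 2 fell (Ccnd2 and E2f2) and Ccnd3 was not called, where 28.2% of all 14833 spiny mouse genes tested rose and 26.9% fell (55.1% either way). Birc5, with 99 counts over the 8 samples, was too low to be tested. The median log2 fold change over the tested members was 1.47 (2.77-fold), against -0.01 over all genes tested. By class it was 0.52 for G1/S (10 of 13 higher, 2 lower), 1.59 for G2/M (18 of 18 higher) and 1.57 for spindle and cytokinesis (18 of 18 tested higher). Treated samples lay wholly above untreated ones for 44 members (26.7% of all genes tested) and wholly below for Ccnd2 and E2f2 (24.1% of all genes tested).

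In all, 42 members rose in both species. Taken singly, 25.9% of all mouse genes tested and 28.2% of all spiny mouse genes tested rose. The share of all genes that rose in both was not counted. The G1/S class had the lowest median in each species. A log2 fold change of at least 1 was reached by 5 of 13 G1/S, 14 of 18 G2/M and 12 of 19 spindle members in mouse, and by 3 of 13, 18 of 18 and 16 of 18 in spiny mouse. The share of all genes with a change of that size was not counted. The difference between classes was not tested, since genes of a class are not replicates.

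**Figure D1:**
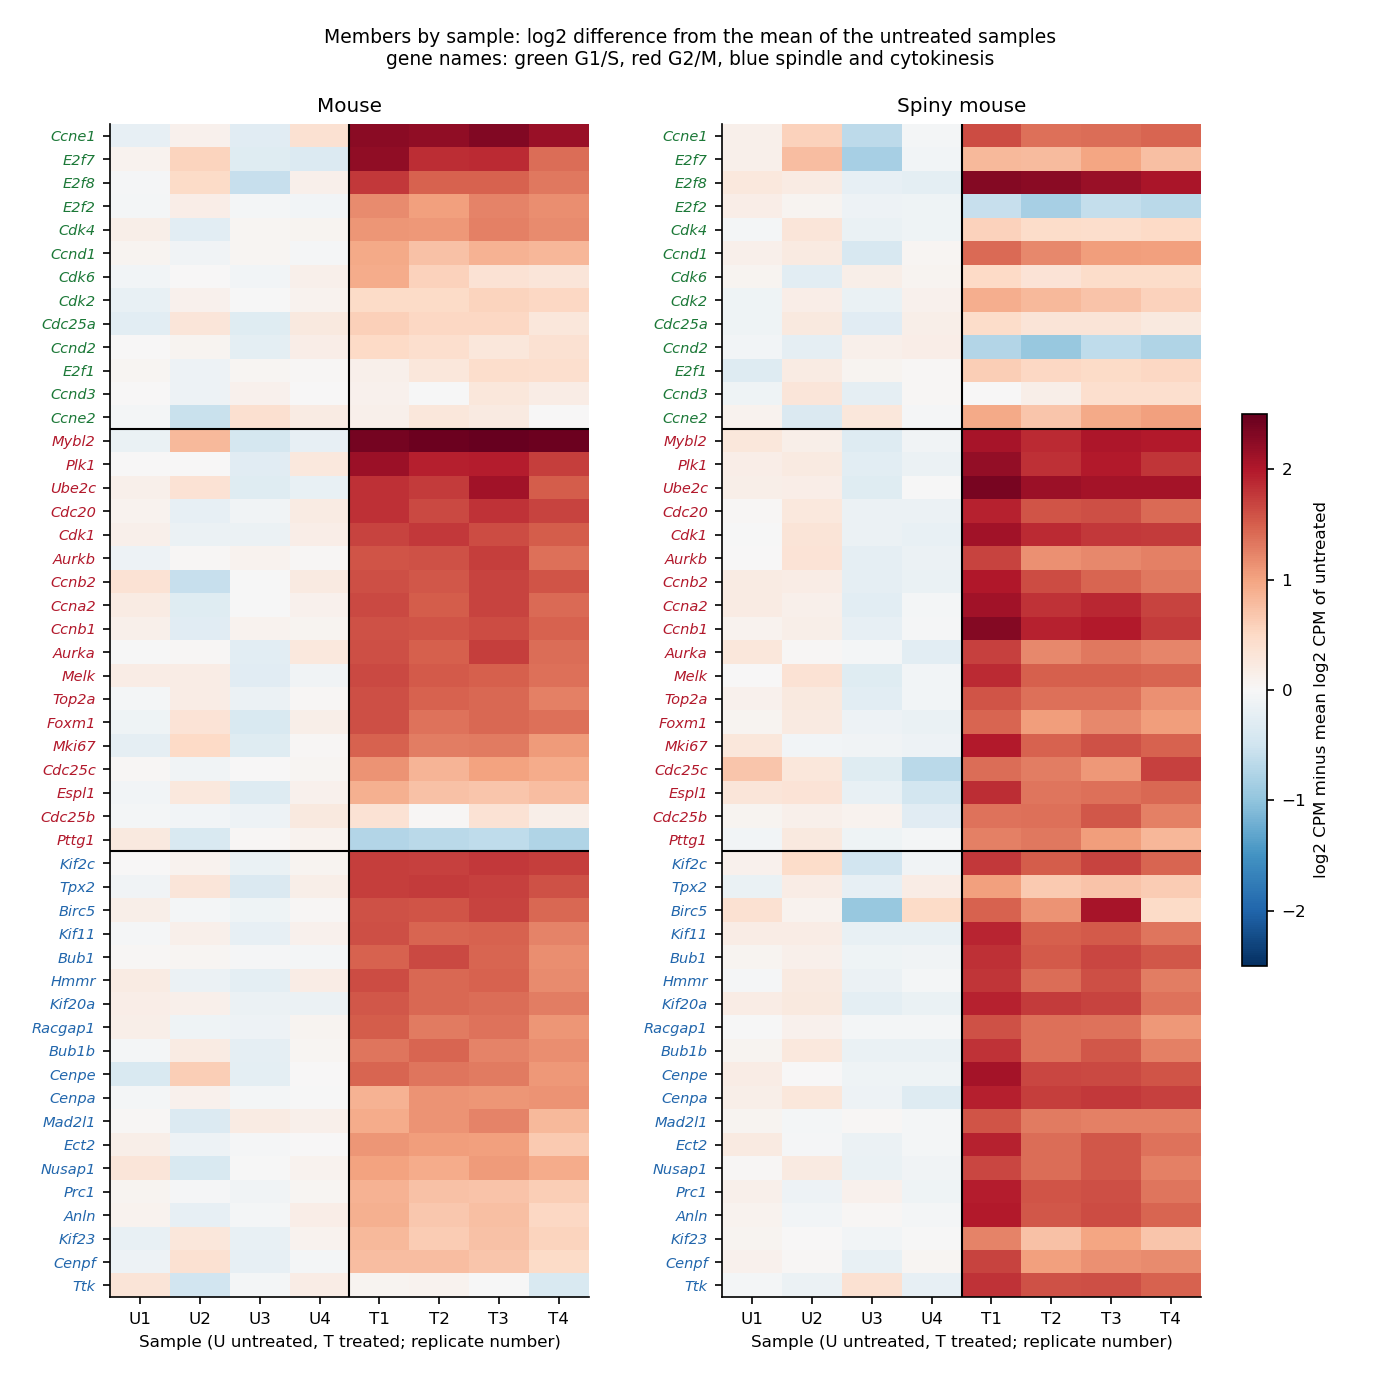
Each row is a member and each column a sample, untreated (U) or treated (T) with its replicate number, and the colour is the log2 CPM minus the mean log2 CPM of the untreated samples of that species, with members ordered by mouse fold change within each class. Treated columns are red for nearly all G2/M and spindle members in both species, while Pttg1 in mouse and Ccnd2 and E2f2 in spiny mouse are blue; Birc5 in spiny mouse rests on 99 counts.

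**Figure D2:**
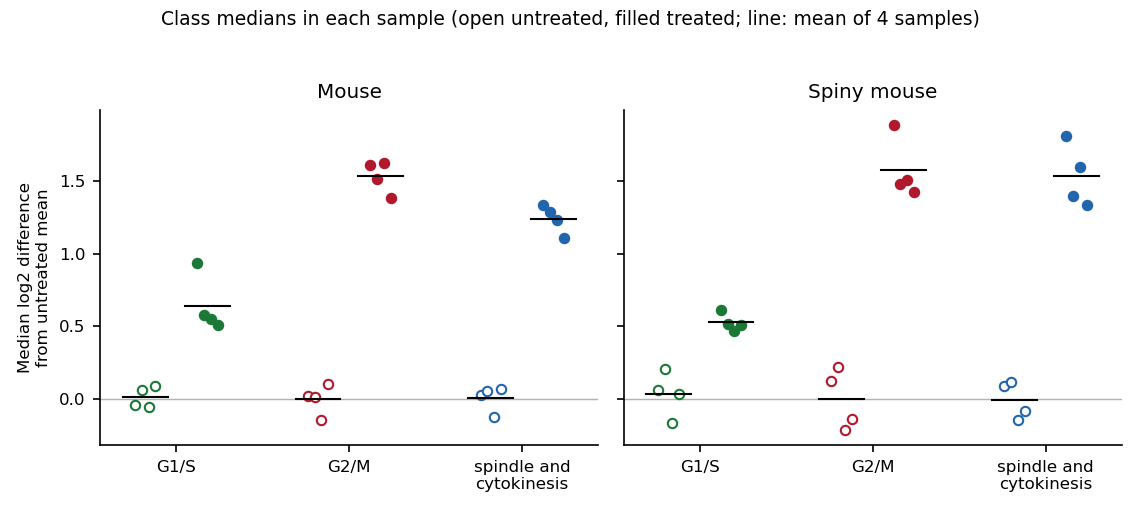
Points are the median log2 difference from the untreated mean over the members of a class in 1 sample, open for untreated and filled for treated, and lines are means of 4 samples. The treated G1/S medians lie between 0.51 and 0.93 in mouse and 0.47 and 0.61 in spiny mouse, below every treated G2/M and spindle median of the same species.

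Among the D-type cyclins, which carry growth signals to CDK4 and CDK6, each gene behaved differently. Ccnd1 measured 72.3, 65, 71.8 and 67.2 CPM in untreated and 132, 114, 126 and 122 CPM in treated mouse replicates 1 to 4. The spiny mouse values were 93, 99, 64.6 and 88.5 CPM untreated and 228, 195, 175 and 173 CPM treated. Every treated sample was above every untreated one in both species. The rise was 0.84 on the log2 scale (SE 0.09, edgeR adjusted p = 8.16e-05) in mouse and 1.16 (SE 0.14, adjusted p = 0.000167) in spiny mouse.

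Ccnd2 went opposite ways. Untreated mouse skin had 383, 397, 322 and 424 CPM and treated mouse skin 537, 509, 463 and 494 CPM, without overlap. In spiny mouse it stood at 439, 390.5, 504 and 514 CPM untreated and 278, 237, 294 and 271 CPM treated, so that all treated samples lay below all untreated ones. The rise in mouse was 0.39 on the log2 scale (SE 0.13, edgeR adjusted p = 0.0296), and the change in spiny mouse was -0.77 (SE 0.11, adjusted p = 0.000351). The mouse call was weak: it was lost without untreated replicate 1 or treated replicate 1 (adjusted p = 0.0568 to 0.0607) and under upper-quartile (0.19, adjusted p = 0.247) or library-size scaling (0.15, adjusted p = 0.329). Ccnd3, whose exons overlap those of Bysl on the other strand, was called in neither species (0.14, adjusted p = 0.215 and 0.25, adjusted p = 0.135). It was called without treated mouse replicate 2 (0.29, adjusted p = 0.0317), with DESeq2 size factors in mouse (0.24, adjusted p = 0.0386) and without untreated spiny mouse replicate 2 (0.36, adjusted p = 0.0335).

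The kinase partners rose in both species. Cdk4 was the larger change in mouse (1.15, 2.22-fold, edgeR adjusted p = 5.51e-05) and a smaller one in spiny mouse (0.48, 1.4-fold, adjusted p = 0.00308); its exons overlap Tspan31 in both annotations. Cdk6 rose 1.48-fold and 1.34-fold, and Cdk2 1.42-fold and 1.68-fold, in mouse and spiny mouse. In the mouse annotation only, exons of Cdk2 overlap those of Pmel on the other strand. The mouse call of Cdk6 (log2 0.56) was lost under upper-quartile factors (0.36, adjusted p = 0.0571) and library size alone (0.32, adjusted p = 0.0715), and that of Cdk2 (log2 0.51) under library size alone (0.26, adjusted p = 0.051). Cdc25a, the phosphatase that activates CDK2, had overlapping groups in both species and the smallest called rise of the class in spiny mouse (0.32, adjusted p = 0.0439). That call was lost in 6 of the 8 fits without 1 library (all but untreated replicate 2 and treated replicate 4, adjusted p = 0.0501 to 0.116), and the mouse call (0.46, adjusted p = 0.0344) in 5 of 8 (all but untreated replicates 2 and 4 and treated replicate 4, adjusted p = 0.0501 to 0.0768). Both were also lost under upper-quartile factors (0.24, adjusted p = 0.26 in mouse and 0.29, adjusted p = 0.0699 in spiny mouse) and library size alone (0.21, adjusted p = 0.319 and 0.31, adjusted p = 0.0554).

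Ccne1, an E-type cyclin of the G1/S switch, had the largest rise of the class in mouse. Its untreated levels of 2.2, 2.76, 2.09 and 3.33 CPM were far from the treated levels of 12.1, 11.8, 12.7 and 11.3 CPM. Spiny mouse skin went from 4.76, 6.5, 2.79 and 4.21 CPM to 13.6, 11.3, 11.4 and 12 CPM. The groups did not overlap in either species, and the fold change was 4.63-fold in mouse (log2 2.21, SE 0.18, edgeR adjusted p = 1.83e-05) and 2.65-fold in spiny mouse (log2 1.40, SE 0.22, adjusted p = 0.000665). Ccne2, which overlaps Ints8 in both annotations, was at 14.1, 9.82, 19.1 and 16.8 CPM untreated and 15.9, 17.8, 17.1 and 14.6 CPM treated in mouse. These mouse groups overlapped fully (0.13, adjusted p = 0.579). In spiny mouse Ccne2 rose from 3.64, 2.66, 4.15 and 3.34 CPM to 6.6, 5.5, 6.55 and 6.9 CPM with no overlap (0.89, SE 0.16, adjusted p = 0.00131).

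The E2F factors did not move as one group. E2f7 and E2f8 are atypical members that repress E2F targets later in S phase. E2f8 stood at 7.45, 10.7, 5.13 and 8.38 CPM untreated and 26.1, 21.2, 21.3 and 19.2 CPM treated in mouse. In spiny mouse it went from 10.6, 10.2, 7.66 and 7.45 CPM to 43.5, 42.2, 39.6 and 36.4 CPM, the largest fold change of all members there (4.5-fold, log2 2.17, SE 0.13, edgeR adjusted p = 8.84e-06), against 2.78-fold in mouse (log2 1.47, SE 0.21, adjusted p = 0.000378). No treated sample reached down to the untreated range in either species.

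E2f7 rose in mouse from 4.4, 6.14, 3.37 and 3.28 CPM to 19.3, 15, 15.2 and 10.9 CPM (3.51-fold, adjusted p = 0.000283). The spiny mouse values of 3.54, 5.51, 1.84 and 3.11 CPM untreated and 5.73, 5.64, 6.4 and 5.48 CPM treated overlapped, with untreated replicate 2 just above the lowest treated sample. Its call in spiny mouse (0.74, SE 0.28, adjusted p = 0.0472) was lost in 7 of the 8 fits that left out 1 library, all but the one without untreated replicate 2 (adjusted p = 0.0608 to 0.105), and under upper-quartile factors (0.70, adjusted p = 0.0521).

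E2f1 and E2f2 are activators of the S phase genes. E2f2 measured 21.4, 24.5, 21.2 and 21.1 CPM in untreated and 50.2, 44.7, 52.2 and 49.5 CPM in treated mouse skin. In spiny mouse it was at 15.2, 14.1, 12.4 and 12.5 CPM untreated and 9.01, 7.58, 8.93 and 8.41 CPM treated. It rose 2.23-fold in mouse (log2 1.16, SE 0.09, edgeR adjusted p = 2.07e-05) and fell in spiny mouse (log2 -0.68, SE 0.10, adjusted p = 0.000553), with no overlap of groups in either. E2f1 rose by little in both species (0.32, adjusted p = 0.0392, and 0.52, adjusted p = 0.00361). The mouse call of E2f1 was lost without untreated replicate 1 or 4 or treated replicate 3 or 4 (adjusted p = 0.0609 to 0.097), under upper-quartile factors (0.12, adjusted p = 0.392) and under library size alone (0.08, adjusted p = 0.556).

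All 3 mitotic cyclins of the G2/M class and their kinase Cdk1 rose in both species. Ccnb1, which with CDK1 triggers mitosis, stood at 16.9, 12.8, 16.3 and 16.3 CPM in untreated and 46.4, 46.1, 47.7 and 42.9 CPM in treated mouse skin. The spiny mouse samples gave 18.3, 19.2, 15 and 16.8 CPM and 85, 65.9, 67.7 and 58.1 CPM. Neither species had overlapping groups, and the rise was 2.94-fold in mouse (adjusted p = 1.15e-05) and 3.99-fold in spiny mouse (adjusted p = 1.05e-05). Ccnb2 rose 2.96-fold and 3.06-fold, Ccna2 (overlapping Exosc9) 2.95-fold and 3.64-fold, and Cdk1 3.12-fold and 3.64-fold, in mouse and spiny mouse.

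Mybl2 encodes B-MYB, a transcription factor of the late cell cycle genes. It had the largest fold change of all members in mouse, from 3.83, 7.59, 3.15 and 3.73 CPM to 22.6, 23.6, 25.9 and 23.5 CPM (5.23-fold, log2 2.39, SE 0.26, edgeR adjusted p = 8.48e-05). Untreated replicate 2 was the highest of its group, and without it the log2 fold change was 2.83 (adjusted p = 4.74e-09). In spiny mouse Mybl2 went from 7.52, 6.86, 4.93 and 5.8 CPM to 25.8, 22.7, 25.2 and 24.4 CPM (3.9-fold, adjusted p = 1.17e-05). Foxm1, the forkhead factor of the same programme, rose 2.7-fold in mouse and 2.28-fold in spiny mouse.

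Plk1, the polo kinase that acts from mitotic entry to cytokinesis, measured 6.76, 6.75, 5.46 and 7.97 CPM untreated and 29.4, 25.7, 26 and 22.1 CPM treated in mouse. Spiny mouse skin had 12.2, 12.6, 8.99 and 9.78 CPM and 49.5, 38.1, 42.3 and 37.2 CPM. On the log2 scale the rises of 1.94 (SE 0.15, edgeR adjusted p = 1.46e-05) and 1.94 (SE 0.14, adjusted p = 1.51e-05) were nearly equal. The Aurora kinases rose as well: Aurka 2.93-fold and 2.57-fold, and Aurkb 2.98-fold and 2.5-fold. Aurka overlaps Cstf1 in the spiny mouse annotation.

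Ube2c and Cdc20, whose promoters are printed above, serve the anaphase-promoting complex as its ubiquitin-conjugating enzyme and its activator. Ube2c rose from 8.1, 9.52, 6.04 and 6.51 CPM to 26.4, 25.1, 31.6 and 21.1 CPM in mouse and was highest in treated replicate 3. The spiny mouse levels were 5.21, 5.32, 3.81 and 4.71 CPM untreated and 24.4, 20.7, 19.9 and 19.8 CPM treated. Its fold change of 4.46 in spiny mouse (log2 2.16, SE 0.13, edgeR adjusted p = 8.52e-06) was the largest of the class there, against 3.46 in mouse (adjusted p = 5.84e-05).

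Cdc20, whose exons overlap the abundant Elovl1, had 16, 12.9, 14.1 and 17.3 CPM in untreated and 53.1, 46.7, 52.4 and 48.1 CPM in treated mouse skin. In spiny mouse the values were 16.2, 19.1, 14.4 and 14.3 CPM and 60.3, 47.3, 48.9 and 42.5 CPM. The rise was 3.33-fold (adjusted p = 8.78e-06) and 3.11-fold (adjusted p = 2.64e-05), with every treated sample above every untreated one.

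Pttg1 encodes securin, the inhibitor of separase that this complex destroys. In mouse it was the member that fell, from 22.9, 14.9, 19.7 and 20.5 CPM to 11.6, 12, 12.5 and 11.5 CPM. Spiny mouse skin had 6.6, 8.21, 6.4 and 6.67 CPM untreated and 16.6, 17.2, 14.3 and 12.4 CPM treated. All treated mouse samples were below all untreated ones (log2 -0.71, SE 0.14, edgeR adjusted p = 0.00202), and all treated spiny mouse samples were above theirs (log2 1.12, SE 0.13, adjusted p = 0.000152). Espl1, which encodes separase itself, rose in both (1.7-fold and 2.77-fold).

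The CDC25 phosphatases remove the inhibitory phosphate from CDK1. Cdc25b was at 39.9, 39.7, 38 and 48.7 CPM untreated and 53, 42.3, 53 and 45.5 CPM treated in mouse, with overlap (log2 0.22, adjusted p = 0.128). That result passed the threshold without untreated replicate 2, untreated replicate 4 or treated replicate 2 (adjusted p = 0.0344 to 0.044), and with DESeq2 size factors. In spiny mouse Cdc25b rose from 31.9, 33.2, 32.4 and 24.8 CPM to 78, 79.3, 88.7 and 73.1 CPM (2.61-fold, adjusted p = 1.99e-05), the treated samples far above the untreated. Cdc25c rose 1.97-fold and 2.38-fold, the latter on only 109 counts over the 8 spiny mouse samples.

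The markers of dividing cells moved alike. Mki67 (the Ki-67 antigen) rose 2.38-fold in mouse and 3.12-fold in spiny mouse, Top2a (the topoisomerase that untangles replicated chromosomes) 2.72-fold and 2.58-fold, and the kinase gene Melk 2.83-fold and 2.95-fold. None of these had overlapping groups.

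Motor proteins of the spindle rose in both species. Kif11 is the motor that pushes the spindle poles apart, and its promoter is printed above. It measured 25.3, 28.2, 22.4 and 27.6 CPM untreated and 78.3, 71, 71.8 and 60.9 CPM treated in mouse, and treated replicate 4 was the lowest treated sample. Spiny mouse skin had 27.9, 27.8, 21.5 and 21.5 CPM and 91.8, 68.9, 70.8 and 62.1 CPM. The rise was 2.73-fold (adjusted p = 1.74e-05) and 2.97-fold (adjusted p = 4.49e-05).

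Kif2c, a motor that corrects faulty attachment of chromosomes, had the largest fold change of its class in mouse. It went from 5.74, 6.1, 5.13 and 6.01 CPM to 19.1, 18.9, 19.4 and 19.1 CPM, with very little spread between treated samples (3.33-fold, log2 1.73, SE 0.11, edgeR adjusted p = 6.82e-06). In spiny mouse it rose from 5.82, 7.46, 3.91 and 5.12 CPM to 18.5, 15.5, 17.4 and 14.8 CPM (2.97-fold, adjusted p = 0.000131). Both pairs of groups were free of overlap. Kif20a, a motor of the late spindle that overlaps Cdc23 in both annotations, had 6.4, 6.66, 4.76 and 5.03 CPM untreated and 21.5, 18.9, 18.2 and 14.4 CPM treated in spiny mouse (3.19-fold, adjusted p = 4.75e-05) and 12.1, 11.8, 9.67 and 9.66 CPM untreated and 31.6, 29, 28.2 and 26.1 CPM treated in mouse (2.66-fold). Kif23, another motor of the midzone, rose by less (1.59-fold and 1.9-fold).

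Among genes of the centromere and kinetochore, Cenpa, which encodes the histone that marks the centromere, was at 7.11, 7.81, 5.89 and 5.12 CPM untreated and 24.7, 21.3, 21.8 and 20.8 CPM treated in spiny mouse. This was the largest rise of the class there (3.41-fold, log2 1.77, SE 0.14, edgeR adjusted p = 2.04e-05). In mouse Cenpa rose 2.08-fold, from 17, 18.8, 16.9 and 17.4 CPM to 32.1, 38, 37.8 and 38 CPM. Cenpe, a kinetochore motor, went from 19.1, 16.9, 15.5 and 15.6 CPM to 70.7, 53, 52.8 and 49.5 CPM in spiny mouse (3.36-fold, adjusted p = 1.63e-05), with treated replicate 1 well above the others. In mouse it rose 2.38-fold, from 9.81, 19.5, 10.9 and 13 CPM to 35.2, 32.5, 31.7 and 27.2 CPM, and untreated replicate 2 was the highest untreated mouse sample. Cenpf, a further kinetochore gene, rose 1.58-fold and 2.43-fold.

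The checkpoint genes hold back anaphase until all chromosomes are attached. Bub1 rose 2.72-fold and 3.13-fold, Bub1b 2.45-fold and 2.84-fold, and Mad2l1 2.02-fold and 2.55-fold, in mouse and spiny mouse. Ttk, which encodes the checkpoint kinase MPS1, did not follow them in mouse: its values were 20.6, 11.9, 15.9 and 18.9 CPM untreated and 17.2, 17.4, 16.3 and 12.7 CPM treated. These groups overlapped (log2 -0.08, SE 0.18, adjusted p = 0.711). In spiny mouse Ttk rose from 8.44, 7.89, 11.4 and 7.5 CPM to 30.6, 26.1, 26.6 and 24 CPM with no overlap (log2 1.60, SE 0.14, adjusted p = 3.76e-05).

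Of the genes that organise microtubules, Tpx2, which activates Aurora A on the spindle, measured 11.5, 15.1, 9.6 and 13.5 CPM untreated and 40.5, 41.4, 40.2 and 37.1 CPM treated in mouse. In spiny mouse it was at 21.4, 27, 20.7 and 27.3 CPM and 48.5, 37.6, 39.2 and 37 CPM. The groups were apart in both, with a larger fold change in mouse (3.2-fold, adjusted p = 2.44e-05) than in spiny mouse (1.68-fold, adjusted p = 0.00101). Nusap1, a microtubule-binding gene that overlaps Oip5, rose 1.95-fold and 2.77-fold, and Hmmr 2.69-fold and 2.88-fold.

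Birc5 encodes survivin, a subunit of the chromosomal passenger complex. In mouse it rose from 7.12, 6.23, 5.97 and 6.56 CPM to 19.4, 19.1, 20.9 and 17.5 CPM (2.97-fold, adjusted p = 1.28e-05). The spiny mouse table listed it at 0.34, 0.278, 0.136 and 0.366 CPM untreated and 0.728, 0.572, 1.1 and 0.365 CPM treated, which rests on 4 to 30 counts a sample and was not tested.

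The genes of cytokinesis rose in both species. Anln, the actin-binding anillin of the cleavage furrow, went from 35.7, 31.9, 34.1 and 32.6 CPM to 132, 98.4, 103 and 91.4 CPM in spiny mouse and from 40.8, 33.1, 37 and 43.2 CPM to 70.8, 61.5, 64.2 and 55 CPM in mouse. The rise was 3.17-fold (adjusted p = 1.23e-05) and 1.63-fold (adjusted p = 0.000788), without overlap. Prc1, which bundles the microtubules of the midzone, rose 1.67-fold in mouse and 3.11-fold in spiny mouse. Ect2, which switches on the furrow, rose 1.95-fold and 2.97-fold, and its partner Racgap1 2.49-fold and 2.58-fold.

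The 2 responses were compared through an interaction term of species and treatment in edgeR, over 13656 genes with the same symbol in both tables. Positive values mean that spiny mouse skin had the larger log2 fold change. Of 49 members tested, 13 differences were called positive and 6 negative, where 21.4% and 24.7% of all genes tested were called (46.1% either way). The members' share of positive calls was near the background, and their share of negative calls was below it. The scaling mattered here: 13 positive and 6 negative calls became 8 and 6 with DESeq2 size factors and 24 and 4 with library size alone, which moved the median difference of all genes by -0.10 and 0.22. Upper-quartile factors gave 17 and 4 and moved it by 0.17. Over all genes the positive share of calls was 46.4%, and 36.9%, 66.2% and 61.2% under these scalings; with no filter on low counts it was 36.3%.

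By class the median difference was -0.14 for G1/S, where it turned positive under upper-quartile factors (0.04) and library size (0.10), 0.14 for G2/M and 0.30 for spindle and cytokinesis, against -0.03 over all genes. Called differences were 2 positive and 5 negative of 13 in the G1/S class, 4 and 0 of 18 in the G2/M class and 7 and 1 of 18 in the spindle class. Across the 49 genes the log2 fold changes of the species had a Pearson correlation of 0.44, and genes are not independent replicates. By class the correlation was 0.42 for G1/S, 0.64 for G2/M and -0.07 for spindle and cytokinesis.

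**Figure D3:**
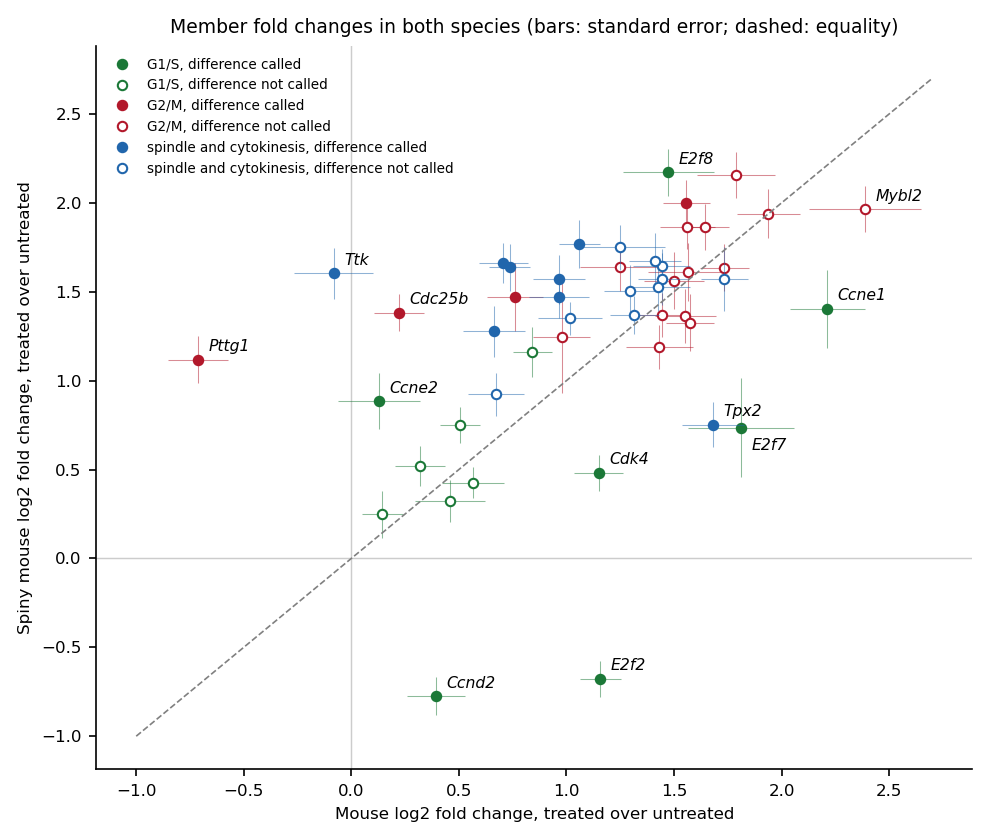
Each point is a member, with its log2 fold change in mouse on the horizontal and in spiny mouse on the vertical axis, standard errors as bars, colour by class and filled where the species difference was called. Most G2/M and spindle members lie between 1 and 2 on both axes, and Ccnd2, E2f2, Pttg1, Ttk and Cdc25b lie away from the dashed line of equality.

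The largest difference was that of E2f2, at -1.83 (SE 0.13, 95% interval -2.11 to -1.56, edgeR adjusted p = 1.12e-07). Pttg1 followed at 1.83 (interval 1.42 to 2.24, adjusted p = 3.92e-06), then Ttk at 1.69 (interval 1.18 to 2.20, adjusted p = 5.18e-05) and Ccnd2 at -1.17 (interval -1.52 to -0.82, adjusted p = 5e-05). E2f2 and Ccnd2 thus rose in mouse and fell in spiny mouse, and Pttg1 did the reverse. Cdc25b (1.16), Anln (0.96), Prc1 (0.90) and Cenpa (0.71) rose more in spiny mouse, and Tpx2 (-0.93) and Cdk4 (-0.67) rose more in mouse. These 10 calls held under all 25 alternatives run for each, including every fit without 1 library.

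**Figure D4:**
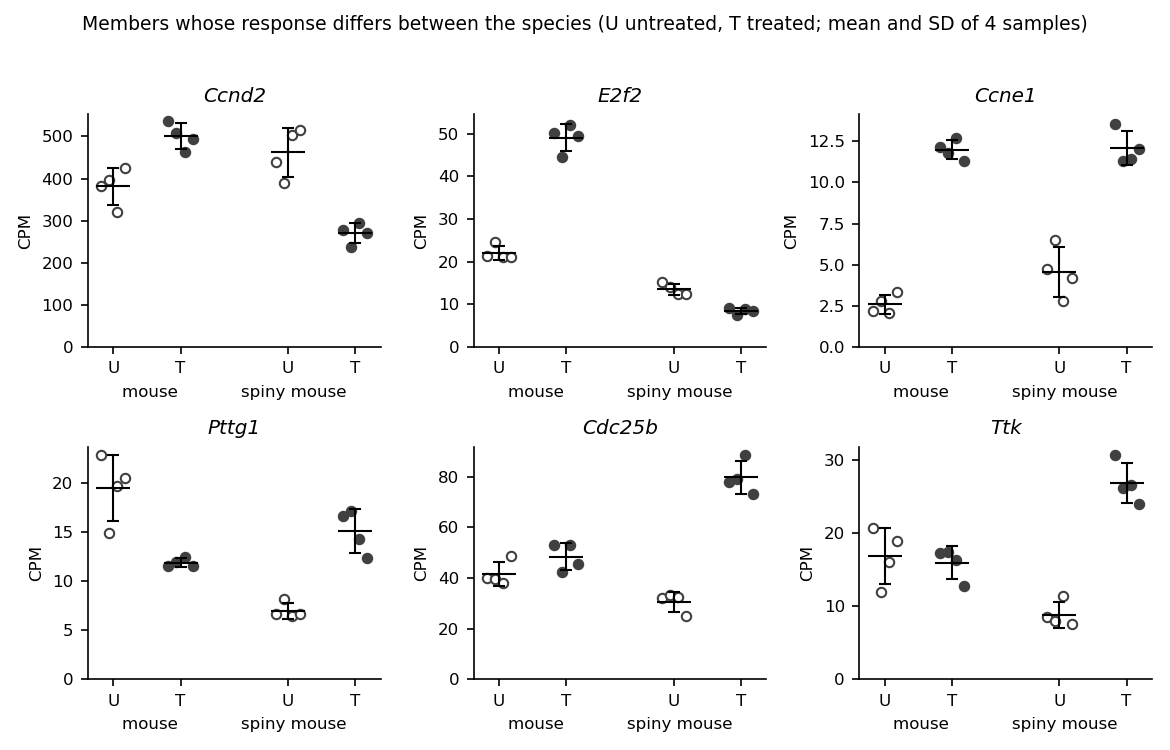
Points are CPM in each sample, open for untreated (U) and filled for treated (T), with mean and SD of 4 samples. Ccnd2 and E2f2 move up in mouse and down in spiny mouse, Pttg1 moves the other way, and Cdc25b and Ttk are raised in spiny mouse while their mouse groups overlap; levels of the 2 species come from separate tables.

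The other 9 called differences were smaller or less stable. Ccne1 (-0.81) and E2f7 (-1.07) rose more in mouse. Ccne2 (0.76), Espl1 (0.71), E2f8 (0.70), Cenpf (0.61), Ect2 (0.60), Nusap1 (0.50) and Ccnb1 (0.44) rose more in spiny mouse. Apart from Ect2, which lost its call only with no filter on low counts (adjusted p = 0.0537), each lost it in 2 to 12 of the 16 fits without 1 library. Of the 30 members not called, Top2a differed by -0.08 (interval -0.44 to 0.29), Racgap1 by 0.05 (interval -0.28 to 0.38), Cdk6 by -0.14 (interval -0.50 to 0.23) and Plk1 by 0.001 (interval -0.53 to 0.53). For 4 of the 49 members (Ccnd3, Top2a, Cdc20 and Racgap1) the 95% interval lay within 0.5 of 0 on either side, and for the others that were not called a larger difference was within the interval. Without untreated mouse replicate 2 there were 10 positive and 8 negative calls. Mybl2 (-0.42, adjusted p = 0.247) was not called, but it was without that sample (-0.87, adjusted p = 0.000597), as was Foxm1 (-0.46, adjusted p = 0.048), while E2f8, Espl1 and Cenpf then lost their calls (adjusted p = 0.119, 0.0699 and 0.092). Cenpe was called without untreated mouse replicate 1 (0.60, adjusted p = 0.0488). With all samples kept, limma-voom with sample weights also called Mybl2 (-0.72, adjusted p = 0.00224). It called Ccnd1 (0.36, adjusted p = 0.0364) and Ccna2 (0.42, adjusted p = 0.0219) as well, while Cenpf lost its call there (0.38, adjusted p = 0.0529).

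Other genes of the same pathways, from lists chosen with earlier results of these data known, were set beside the members. Of all genes tested, 25.9% rose and 35.3% fell in mouse, and 28.2% rose and 26.9% fell in spiny mouse. The licensing list held Mcm2 to Mcm7, Cdc6, Cdt1, Orc1, Gmnn and Pcna, not all of which load the replicative helicase. All rose in both species (11 of 11 in each), with medians of 1.09 in mouse and 1.32 in spiny mouse. Mcm5, a helicase subunit, was the largest in mouse (1.61, SE 0.12, edgeR adjusted p = 1.6e-05) and Cdc6, a loading factor, in spiny mouse (1.88, SE 0.13, adjusted p = 1.39e-05). Of 17 further kinetochore and passenger genes 15 rose in mouse and 17 in spiny mouse, led by Cdca8, which encodes borealin (1.63, adjusted p = 3.76e-05), and Nuf2, a kinetochore subunit (1.68, adjusted p = 2.04e-05). The lists overlap in function with the members and are not independent of them.

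Of 14 subunits and partners of the anaphase-promoting complex 7 rose in mouse and 8 in spiny mouse and none was called lower, with medians of 0.24 and 0.21; Fzr1, the activator of late mitosis and G1, led in mouse (0.68, adjusted p = 0.000123) and Anapc15 in spiny mouse (0.61, adjusted p = 0.000774). Of 13 genes of the retinoblastoma and DREAM complexes 6 rose and 4 fell in mouse, and 6 rose and 3 fell in spiny mouse. E2f3, an activating E2F, rose most in mouse (1.46, adjusted p = 0.000102) and the pocket protein gene Rbl2 fell most (-0.56, adjusted p = 0.000339). In spiny mouse Rbl1, another pocket protein gene, rose most (1.32, adjusted p = 1.85e-05) and Rb1, the retinoblastoma gene, fell most (-0.67, adjusted p = 0.000763).

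Of 9 genes of CDK inhibitors and of the inhibitory kinases Wee1 and Pkmyt1, 3 rose and 2 fell in mouse, and 1 rose and 1 fell in spiny mouse. The share that rose (33.3% and 11.1%) was near the background in mouse and below it in spiny mouse. Cdkn1a, which encodes p21, rose in mouse (1.02, SE 0.23, edgeR adjusted p = 0.00402), and its spiny mouse value was -0.10 (adjusted p = 0.487). Cdkn1c, which encodes p57, fell in both (-0.74, adjusted p = 0.00397, and -0.93, adjusted p = 0.00162). Pkmyt1 rose most in spiny mouse (1.29, SE 0.15, adjusted p = 0.000158).

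Per kilobase of the deposited gene length, Ccnd2 and Cdk4 were the most abundant members in untreated skin of both species. Untreated mouse skin had 40.5 ± 4.62 CPM per kb of Ccnd2 (SD, n = 4), 24.5 ± 2.9 of Cdk4 and 14.7 ± 0.756 of Ccnd1. Mki67 (11.3 ± 3.04) and Cdc25b (11.2 ± 1.3) came next and did not differ beyond their spread, and the median over the 50 members was 2.97. In treated mouse skin Cdk4 (54.3 ± 3.22) and Ccnd2 (53.2 ± 3.27) stood level within their SD, Mki67 (26.9 ± 3.07), Cdc20 (26.8 ± 1.69) and Ccnd1 (26.2 ± 1.57) followed, and the median was 6.19. E2f7 and Cdc25c were the lowest in both groups, with 1.68 ± 0.379 and 1.68 ± 0.129 CPM per kb in treated skin.

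In untreated spiny mouse skin Cdk4 stood at 72.4 ± 11.1 CPM per kb (SD, n = 4), Ccnd2 at 57 ± 7.16, Ccnd1 at 22.7 ± 3.96 and Ccnd3 at 21.2 ± 3.38, and the median of the members was 4.13. In treated skin Ccnd1 (50.6 ± 6.69) was above Ccnd2 (33.4 ± 2.94), behind Cdk4 (101 ± 4.23), and Ccnd2 and Ccnb1 (30.1 ± 4.93) did not differ beyond their spread; the median was 10.6. The annotated length of Cdk4 is 3249 bases in mouse and 1399 in spiny mouse, so that levels per length cannot be set against each other between the species.

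Within groups, the highest and lowest samples were counted over the members. In treated spiny mouse skin replicate 1 was the highest of its group for 42 of the 50 members and replicate 4 the lowest for 35. Treated mouse replicate 1 was the highest for 23 members and replicate 3 for 19, and replicate 4 was the lowest for 34. Among untreated samples, replicate 3 was the lowest for 26 members in mouse and for 30 in spiny mouse, and spiny mouse replicate 2 was the highest for 28. Untreated mouse replicate 2, the sample with anagen markers, was the highest for 21 members and the lowest for 16.

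Markers of some cell types moved with treatment beside the members. Over 6 basal keratinocyte markers, none of them at 0, the summed level was 6184 to 9035 CPM in untreated and 14080.0 to 18790.0 CPM in treated mouse skin, and 7768 to 9060.0 and 16820.0 to 21160.0 CPM in spiny mouse. Treated replicate 1 had the highest and treated replicate 4 the lowest of these sums in each species. Of these 6 markers 2 were called higher, 1 lower and 3 were not called in mouse, and 5 were called higher in spiny mouse. Krt14 and Krt5, keratins of the basal layer, were called higher in both species, while Col17a1 was called lower in mouse and higher in spiny mouse. Over 7 suprabasal markers 4 were called higher in mouse and 2 in spiny mouse. Of all genes tested, 25.9% rose and 35.3% fell in mouse, and 28.2% rose and 26.9% fell in spiny mouse. The shares called higher of basal markers in mouse (33.3%) and suprabasal markers in spiny mouse (28.6%) were near that background.

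The 10 anagen hair follicle markers summed to 10.1, 2766, 41.7 and 10.2 CPM in untreated mouse replicates 1 to 4 and to 23590.0 to 25710.0 CPM in treated ones, and 8 of the 10 were called higher. In spiny mouse, where 9 of them are in the table, they summed to 1331 to 14230.0 CPM untreated and 216 to 3798 CPM treated, with 2 of 9 called lower and 0 higher. The share of anagen markers called lower in spiny mouse was not above the 26.9% of all genes tested that fell there. Krt73 and Krt85 had 0 counts in untreated mouse replicates 1 and 4. Within untreated mouse skin, replicate 2 had a median of the members of 0.02 above the untreated mean, and the others 0.01, -0.12 and 0.08 (log2). The 8 leukocyte markers summed to 447 to 1249 CPM untreated and 392 to 555 CPM treated in mouse (5 of 7 tested lower), and in spiny mouse, where 7 are in the table, to 268 to 320.1 CPM and 365 to 536 CPM (3 of 7 higher). Skeletal muscle markers fell in both species (10 of 10 and 9 of 9 tested). Of 6 fibroblast markers 2 were called lower in mouse (median -0.58), and 3 lower and 1 higher in spiny mouse (median -0.715). Of 4 adipocyte markers 2 were called lower in each species (medians -1.28 and -0.61). Of all genes tested, 35.3% fell in mouse and 26.9% in spiny mouse. What part these shifts had in the levels of the members was not tested.

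**Figure D5:**
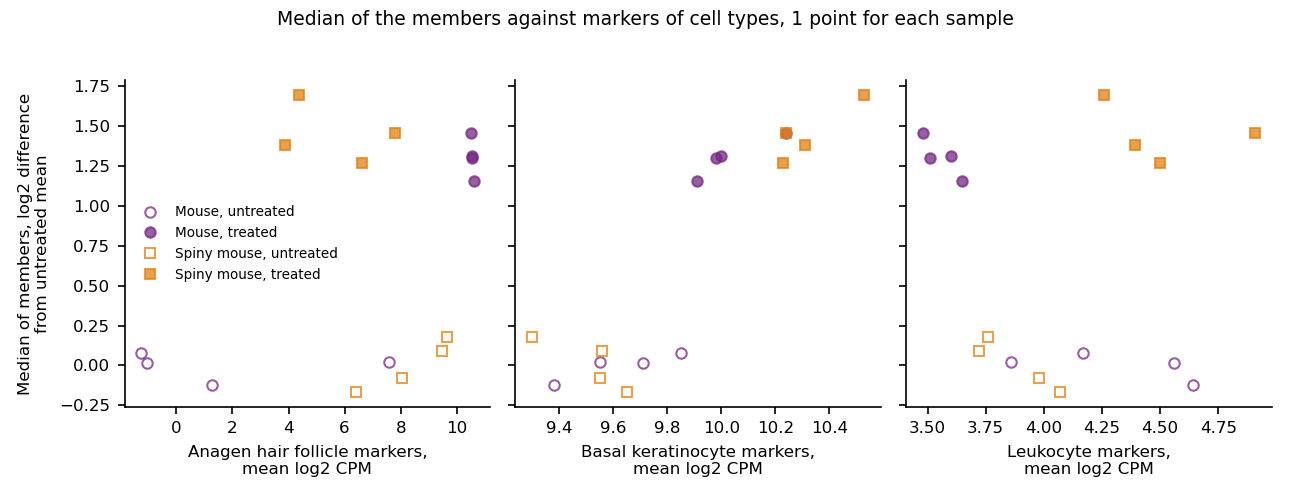
Each point is a sample, with the mean log2 CPM of a marker list on the horizontal axis and the median log2 difference of the 50 members from the untreated mean on the vertical axis. Treated samples lie above 1.1 in both species; in mouse they have the highest anagen scores (10.49 to 10.59) and in spiny mouse lower ones than most untreated samples (3.89 to 7.79), while basal keratinocyte scores are higher in treated samples of both.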

How the data were processed

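RNA-seq of samples labelled as skin gave 1 deposited count table per species, with read pairs counted per gene by the authors with featureCounts 2.0.3, per the file headers. The headers record no strand option and none for multimapping or overlapping reads, so that genes sharing exons cannot be told apart by strand. Overlaps not named above include Ccnd1 with LTO1, Cdc25b with Spef1 and Prc1 with Rccd1 in mouse, and Kif20a with Brd8 in spiny mouse. The mouse annotation was Ensembl 108, per the file headers, and Trim Galore and HISAT2 are named without version in the submitters' processing notes. Samples were grouped by species and treatment from the labels, and columns of untreated samples, which carry the unexplained code AC, were matched by species letter and number. The column of untreated mouse replicate 2 has an extra suffix. Mouse symbols came from the identifiers (56236 of 56980 genes), and the spiny mouse table gives symbols itself.

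Genes kept by filterByExpr were scaled by TMM and tested with edgeR 4.0.16 in R 4.3.3 (glmQLFit and glmQLFTest) at a Benjamini-Hochberg adjusted p under 0.05 over all genes tested, treated against untreated within each species. The species difference was the interaction over symbols found in both tables. Standard errors are the log2 fold change over the square root of F, and 95% intervals use the t quantile at the degrees of freedom of that fit. Class medians of fold changes and of species differences are medians of the fitted log2 values of the members. Class medians in each sample use log2 CPM with a prior count of 2, and the heatmap uses log2 CPM without a prior count. The total counts per sample lay between 19608787 and 30561256. Samples of equal replicate number were not shown to come from the same animal, so no pairing was used. The script was tested on simulated data.

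The members and the other lists were chosen with earlier results of these data known. Named with values in every sample were the 4 members of each class with the largest called change in each species, the 4 with the largest called species difference, members called lower or in opposite directions, and members not called or not tested; others are given by role. Alternatives were DESeq2 1.42.0, DESeq2 size factors, upper-quartile factors, library size alone, all genes kept whatever their counts, a cut-off at 10 counts on average, edgeR's robust option, limma 3.58.1 with voom and sample weights, the replicate number as a block, and each library left out.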

Additional observations from a re-analysis of the deposited data

Results flagged for a closer look

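In 12 of 200 groups of 4 samples, 1 sample lay farther from the rest than Dixon's 95% critical value for the gap over the range allows, where chance gives about 1 in 20. Untreated mouse replicate 2 accounted for 4 of them. It had 9.56 CPM of E2f1 (others 10.57 to 10.77), 24.52 of E2f2 (21.09 to 21.37), 12.76 of Ccnb1 (16.26 to 16.85) and 7.587 of Mybl2 (3.15 to 3.827). Treated mouse replicate 1 had 32.13 CPM of Cenpa against 37.83 to 38.05.

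Treated spiny mouse replicate 1 was the high sample for 4 members, with 27.11 CPM of Espl1 (others 19.12 to 20.33), 17.01 of Melk (12.75 to 13.11), 31.62 of Mad2l1 (25.22 to 26.12) and 70.65 of Cenpe (49.48 to 53.02). Untreated spiny mouse replicate 1 had 102.5 CPM of Mki67 (77.34 to 81.03), replicate 2 had 8.21 of Pttg1 (6.399 to 6.673) and replicate 4 had 24.82 of Cdc25b (31.91 to 33.2).

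The species by treatment interaction in edgeR called 19 members. It was negative, a larger log2 fold change in mouse, for E2f2 (-1.83), Ccnd2 (-1.17), E2f7 (-1.07), Tpx2 (-0.93), Ccne1 (-0.81) and Cdk4 (-0.67). It was positive for Pttg1 (1.83), Ttk (1.69), Cdc25b (1.16), Anln (0.96), Prc1 (0.90), Ccne2 (0.76), Cenpa (0.71), Espl1 (0.71), E2f8 (0.70), Cenpf (0.61), Ect2 (0.605), Nusap1 (0.50) and Ccnb1 (0.44).

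Leaving out 1 library changed some of these calls. The Ccne1 call was lost without untreated mouse replicate 1, untreated spiny mouse replicate 2, treated spiny mouse replicate 2 or treated spiny mouse replicate 3 (adjusted p = 0.0509 to 0.067). The Ccne2 call was lost without untreated mouse replicate 3 or treated mouse replicate 4 (adjusted p = 0.053 to 0.0627). The E2f7 call was lost without untreated mouse replicate 3, untreated mouse replicate 4, treated mouse replicate 1, untreated spiny mouse replicate 2, treated spiny mouse replicate 2 or treated spiny mouse replicate 4 (adjusted p = 0.0532 to 0.0851). The Cenpf call was lost without untreated mouse replicate 2, treated mouse replicate 2, treated mouse replicate 4, untreated spiny mouse replicate 3 or treated spiny mouse replicate 1 (adjusted p = 0.0517 to 0.092). The Espl1 call was lost without untreated mouse replicate 2, treated mouse replicate 2 or treated spiny mouse replicate 1 (adjusted p = 0.0519 to 0.0765). For E2f8 it was lost in 9 of 16 such fits (adjusted p = 0.0554 to 0.119), and it was kept without untreated mouse replicate 1, untreated mouse replicate 3, treated mouse replicate 1, untreated spiny mouse replicate 1, untreated spiny mouse replicate 2, treated spiny mouse replicate 3 or treated spiny mouse replicate 4. For Ccnb1 it was lost in 12 of 16 such fits (adjusted p = 0.0515 to 0.113), and it was kept without untreated mouse replicate 2, untreated spiny mouse replicate 2, treated spiny mouse replicate 2 or treated spiny mouse replicate 4. For Nusap1 it was lost in 12 of 16 such fits (adjusted p = 0.0504 to 0.105), and it was kept without untreated mouse replicate 2, untreated spiny mouse replicate 2, treated spiny mouse replicate 2 or treated spiny mouse replicate 4.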

How the results depend on the processing

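No called value changed sign. The median species difference of the G1/S class (-0.14, with no test) turned to 0.04 when scaled by upper quartiles and to 0.10 by library size, and the balance of all 2921 positive and 3369 negative difference calls turned to 3886 and 2460 and to 4305 and 2201 under them. The calls of 43 of 50 members in mouse, 46 of 49 in spiny mouse and 27 of 49 species differences were the same under every alternative run. The mouse class medians moved by more than the spread between replicates under some settings: from 0.56 to 0.32 for G1/S with library size alone, from 1.55 to 1.35 (upper-quartile factors) and 1.32 (library size alone) for G2/M, and from 1.25 to 1.03, 0.99 and, with no filter on low counts, 1.40 for spindle and cytokinesis. The 13 positive species differences became 8 with DESeq2 size factors, 24 with library size alone and 6 with no filter. Leaving out 1 library gave 8 to 13 (8 without treated mouse replicate 2, treated mouse replicate 4 or treated spiny mouse replicate 1) and 4 to 8 negative ones. It gave 42 to 46 members higher in mouse and 44 to 48 in spiny mouse. The cause was not tested.

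With the replicate number as a block, 42 members were higher and 1 lower in mouse, 44 and 2 in spiny mouse, and 11 differences were positive and 5 negative. Samples of equal number did not deviate together (correlations of -0.01 to 0.02 in mouse and -0.53 to -0.20 in spiny mouse), so the numbers were not taken to pair samples. Under the block the calls of Ccnd2 (0.40, adjusted p = 0.0664), Cdc25a (0.48, 0.059) and E2f1 (0.31, 0.0901) were lost in mouse, those of Cdc25a (0.33, 0.0715) and E2f7 (0.82, 0.0578) in spiny mouse, and the differences of Ccne1 (-0.77, 0.0588), Ccnb1 (0.43, 0.0535) and Nusap1 (0.49, 0.0501).

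The labels do not say that replicates are separate animals, and treatment dose and duration are not given in the sources used here. Counts of Birc5 and Cdc25c in spiny mouse were too low for a precise fold change. Bulk skin does not separate cell number from level per cell.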
